A study of Mus musculus with 7 samples.

Results

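The collagen genes are the mouse genes that encode the chains of the collagens, the triple-helical proteins of the extracellular matrix. They were taken here as every deposited row whose symbol reads Col, a number, the letter a and a number, together with Emid2, the older symbol of the type XXVI collagen gene Col26a1. Of 23284 gene rows, 44 met this description, and 41 of them held at least 10 reads over the 7 libraries. The other 3 rows, Col6a4, Col6a5 and Col28a1, had 0 reads in every library, which allows up to 0.0669 to 0.108 CPM (counts per 1000000 reads in genes) per library, taking 3 reads as the limit that a count of 0 allows. By class, the 41 genes comprised 11 fibrillar collagens, 8 basement membrane collagens, 9 fibril-associated collagens with interrupted triple helices (FACITs) and 13 others.

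Expression was measured by RNA-seq in atrioventricular canals, the segment of the embryonic heart between atrium and ventricle in which the valve cushions form. The first group was Hand2 d/d, homozygous for a germline deletion of the Hand2 coding regions in all cells (4 libraries, replicates 1 to 4), and the second was wild type (3 libraries, replicates 2 to 4). All embryos were outbred NMRI mice with 18 to 23 somites, given as E9.0 to E9.25 in the labels and as e9.5 in the titles, and every library was made from 4 pooled canals matched between genotypes for stage and sex ratio. Of the 4 pools prepared per genotype, RNA quality kept 1 wild-type pool out of sequencing. Libraries held 27905601 to 44860753 reads in genes, Hand2 had 7 to 26 reads in Hand2 null and 1194 to 2123 in wild-type libraries, and the canal genes Tbx2, Tbx3, Bmp2 and Msx2 together had 167 to 217 CPM in Hand2 null and 150 to 262 CPM in wild-type libraries, so that no library went against its label. Heart muscle genes were the most abundant of the marker lists, at 28650 to 33220 CPM in Hand2 null and 27270 to 30110 CPM in wild type. In whole tissue, fewer cells of a type and less RNA per cell cannot be told apart.

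Fibrillar collagens build the rope-like fibrils that give a tissue tensile strength. Type IV collagen forms the sheet of the basement membrane beneath endothelium and around muscle, FACITs decorate the surface of fibrils, and other members form microfilaments, short-chain networks or membrane-anchored proteins. In the early canal, endocardium and myocardium face each other across the cardiac jelly, and mesenchymal cells later lay down the fibrillar matrix of the valve leaflets.

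Of the 41 genes, 30 had enough reads to be tested, and 2 of these fell in the null, the fibrillar gene Col3a1 and Emid2. None rose, and 28 did not pass the threshold of an adjusted p under 0.05 (edgeR quasi-likelihood test, Benjamini-Hochberg adjusted over all 14290 genes tested). Among all genes tested, 2.13% were called lower and 4.11% higher, and 6.24% in either direction. The share of collagen genes called in either direction was close to that of all genes, while both calls were lower. These 2 calls are too few to compare the directions. DESeq2, fitted to 18896 genes with all 41 collagen genes among them, also called no collagen gene higher and called 3 lower. Over all genes it called 993 higher and 768 lower, against 587 and 305 with edgeR. At an unadjusted p under 0.05 the edgeR test gave 2 collagen genes higher and 7 lower of 30, against 13.5% and 10.9% of all genes. Negative log2 fold changes, called or not, were found for 20 of the 30 genes, and their median was -0.42, against 0.02 for all genes tested, of which 47.7% were negative. The 11 genes that the filter on low counts left out had between 11 and 59 reads in all.

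**Figure D1:**
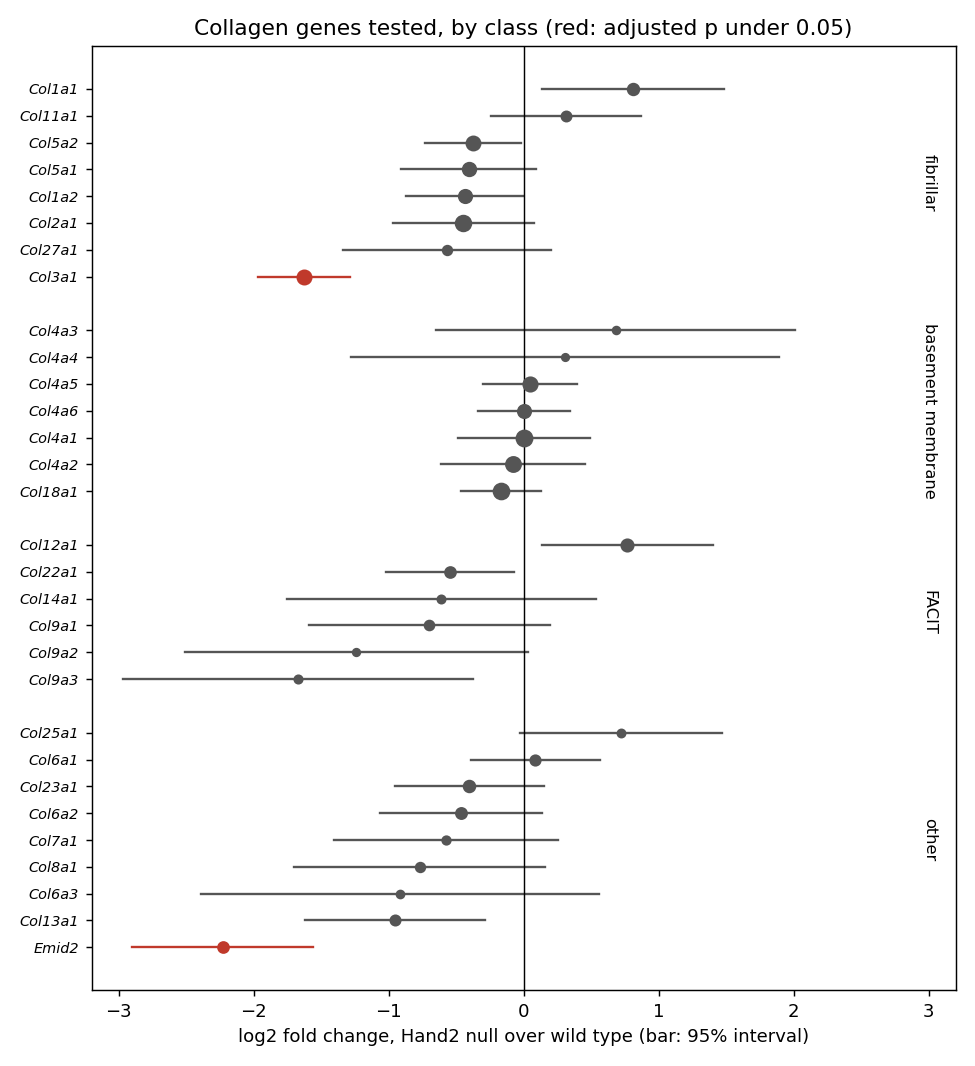
Log2 fold change of Hand2 null over wild-type canals for the 30 collagen genes tested, grouped by class, with the 95% interval as a bar and the point size increasing with the wild-type level. Col3a1 and Emid2, in red, passed the adjusted threshold; the type IV genes with more than 10 CPM lie close to 0.

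The start sites of 3 genes are shown, the called gene Col3a1 and, as examples chosen for holding fewer matches, Col4a5 and Col1a2, which were not called. The other called gene, Emid2, had no match among the RefSeq promoter sequences used here. Each sequence is the 250 bases before the annotated start, from RefSeq on build GRCm38.p6, with every match to the E-box pattern CANNTG, the core that basic helix-loop-helix factors such as HAND2 bind, in capitals.
Col3a1: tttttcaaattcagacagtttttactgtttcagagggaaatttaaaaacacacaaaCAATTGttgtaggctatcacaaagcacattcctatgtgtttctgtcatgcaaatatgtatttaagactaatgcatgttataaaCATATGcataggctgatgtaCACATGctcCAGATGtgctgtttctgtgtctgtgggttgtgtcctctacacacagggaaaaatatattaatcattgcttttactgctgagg
Col4a5: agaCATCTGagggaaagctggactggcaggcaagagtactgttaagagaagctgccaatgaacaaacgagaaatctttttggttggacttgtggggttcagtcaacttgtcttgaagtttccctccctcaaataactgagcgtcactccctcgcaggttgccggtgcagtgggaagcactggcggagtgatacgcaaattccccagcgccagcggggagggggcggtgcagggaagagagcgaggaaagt
Col1a2: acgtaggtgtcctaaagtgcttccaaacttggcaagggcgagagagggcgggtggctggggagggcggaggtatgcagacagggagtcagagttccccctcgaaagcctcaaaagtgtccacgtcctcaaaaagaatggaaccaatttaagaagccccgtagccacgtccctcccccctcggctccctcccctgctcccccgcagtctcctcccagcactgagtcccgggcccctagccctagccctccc

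The Col3a1 stretch lies at chr1:45311288-45311537 on the plus strand and holds 4 matches. CAATTG begins 194 bases before the start, the match CATATG begins at 111, the match CACATG at 91 and the match CAGATG at 82. The Col4a5 stretch, at chrX:141475169-141475418 on the plus strand, holds 1 match, and the Col1a2 stretch, at chr6:4505368-4505617 on the plus strand, holds none. A sequence of this kind was found for 32 of the 41 collagen genes, and 16 of the 32 held CANNTG, against 66% of 27025 promoters. The pattern is its own reverse complement, so each match counts for both strands. The narrower form CATCTG, searched on both strands and contained in CANNTG, was found for 2 of the 32 genes, Col3a1 and Col4a5, against 14.5% of all promoters. Of these, Col3a1 was called lower, while the log2 fold change of Col4a5 was 0.05 (95% interval -0.30 to 0.39). These matches describe the letters of the window only.

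Among the fibrillar collagens, 1 of the 8 genes tested fell and 7 did not pass the threshold. Col3a1 encodes the chain of type III collagen, a homotrimer of distensible tissues such as vessel walls and valves. It had 12.6, 15.98, 17.2 and 13.9 CPM in null replicates 1 to 4, against 42.9, 42.6 and 51.0 CPM in wild-type replicates 2 to 4. The highest null library thus had less Col3a1 than any wild-type library, by a wide margin. The means were 14.9 ± 2.08 CPM in the null (SD, n = 4) and 45.5 ± 4.79 CPM in wild type (SD, n = 3). The log2 fold change was -1.63 (SE 0.156, 95% interval -1.97 to -1.29, edgeR adjusted p = 0.000171). With any single library left out the log2 fold change stayed between -1.72 and -1.55, and the gene was called each time.

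The 95% interval of Col3a1 did not overlap that of its genomic neighbour Col5a2 or those of Col5a1, Col1a1 and Col1a2, which encode chains found in the same fibrils. Col5a2, which encodes a chain of type V collagen, a minor component that helps set fibril diameter, is the next protein-coding gene to Col3a1 on chromosome 1 in GRCm38, tail to tail with it. It had 27.2, 38.6, 39.0 and 28.3 CPM in null replicates 1 to 4, against 42.6, 39.0 and 46.2 CPM in wild-type replicates 2 to 4. These values did not overlap, but the highest null and the lowest wild-type value were almost equal, and the log2 fold change of -0.38 (95% interval -0.73 to -0.02) did not pass the threshold (edgeR adjusted p = 0.18). Per kilobase of transcript, Col3a1 reads were 0.539 ± 0.0384 times those of Col5a2 in null libraries (SD, n = 4) and 1.27 ± 0.0645 times in wild-type libraries (SD, n = 3). The ratio lay between 0.493 and 0.584 in the null and between 1.20 and 1.32 in wild type, without overlap. Such a ratio is taken within a library and does not depend on the scaling between libraries. It uses the same Col3a1 reads as the call, so its separation is no further evidence for the call. The other type V gene that could be tested, Col5a1, averaged 22.2 ± 6.41 CPM in the null (SD, n = 4) and 28.9 ± 6.64 CPM in wild type (SD, n = 3). Its libraries overlapped between the genotypes, and its log2 fold change was -0.41 (95% interval -0.91 to 0.10). Annotated transcripts on the opposite strand overlap exons of Col5a1, and reads without strand cannot separate them.

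**Figure D2:**
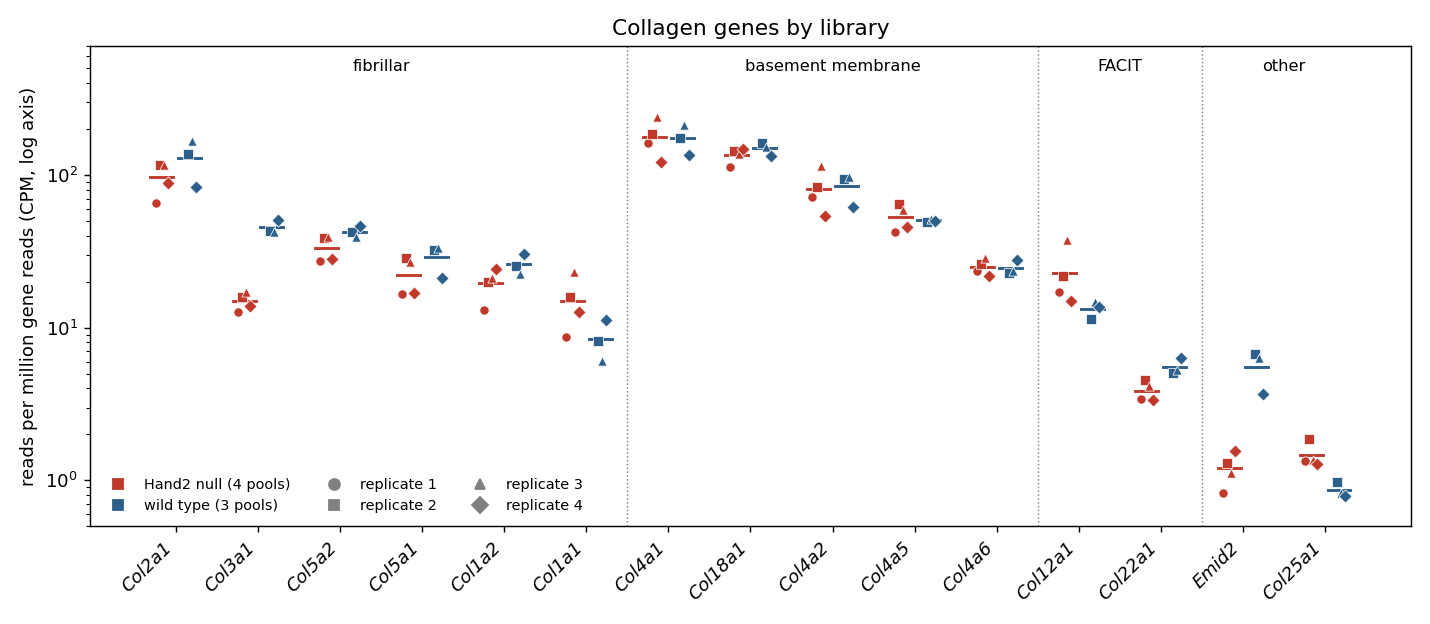
CPM on a log axis in each library for 15 collagen genes that were called, had at least 10 CPM in a group, or did not overlap between groups with at least 1 CPM; horizontal bars are group means and symbols mark the replicate number. The 4 null values of Col3a1 (12.6 to 17.2 CPM) and of Emid2 (0.830 to 1.57 CPM) lie below all wild-type values, while the null ranges of the type IV genes overlap the wild-type ranges.

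The chains of type I collagen, which join in a heterotrimer that is the main collagen of bone, skin and tendon, had log2 fold changes of opposite sign. Col1a1 had 8.68, 15.8, 23.0 and 12.7 CPM in null replicates 1 to 4, against 8.203, 6.02 and 11.2 CPM in wild-type replicates 2 to 4. Col1a2 had 13.02, 19.8, 21.3 and 24.3 CPM in null replicates 1 to 4, against 25.5, 22.6 and 30.4 CPM in wild-type replicates 2 to 4. The genotypes overlapped for each gene taken alone, and neither passed the threshold. The log2 fold change of Col1a1 was 0.81 (95% interval 0.14 to 1.48, edgeR adjusted p = 0.131) and that of Col1a2 was -0.44 (95% interval -0.87 to -0.0013, edgeR adjusted p = 0.203). Without null replicate 3, the library with the most Col1a1, the value of Col1a1 was 0.51 (edgeR adjusted p = 0.198).

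The ratio of the type I chains separated the genotypes although neither gene did. Per kilobase of transcript, Col1a1 had 0.601, 0.719, 0.976 and 0.471 times the reads of Col1a2 in null replicates 1 to 4, against 0.291, 0.240 and 0.333 times for wild-type replicates 2 to 4. The ratio was higher in each null library than in any wild-type library, which does not depend on the lengths used. Which gene had more reads per length does depend on them. The transcripts used have 5930 nt for Col1a1 and 5348 nt for Col1a2, while all annotated exons together cover 6563 and 12426 nt. This ratio was computed after the values had been seen and was not tested.

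**Figure D3:**
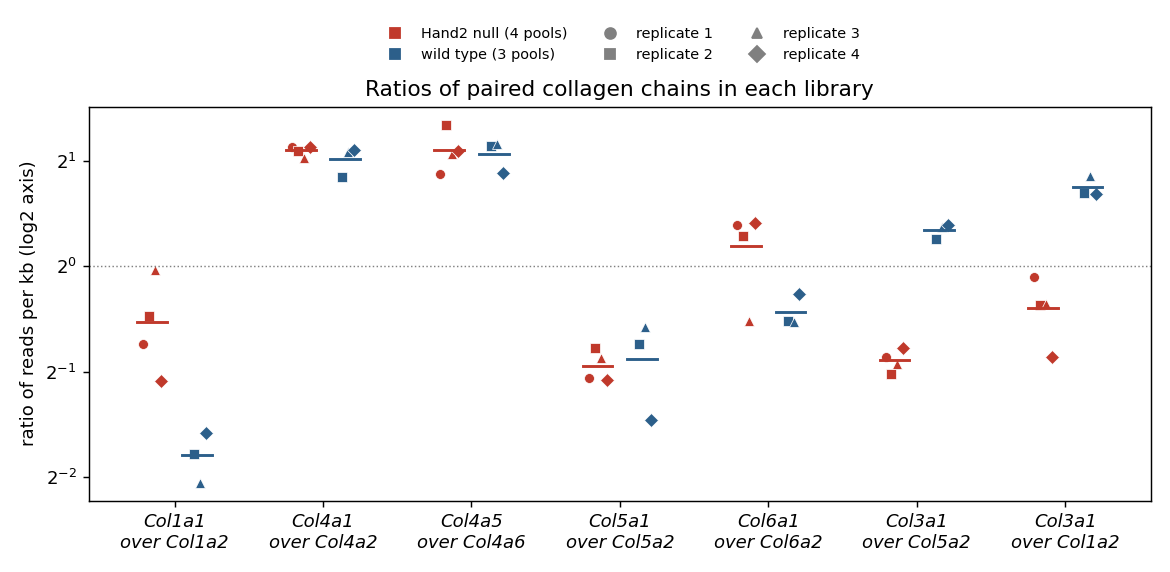
Ratio of reads per kilobase of transcript between paired collagen genes in each library, on a log2 axis, with group means as bars. The ratios of Col1a1 to Col1a2 and of Col3a1 to Col5a2 or Col1a2 do not overlap between the genotypes, while those within type IV and type V collagen do. The Col3a1 ratios use the same reads as the call of Col3a1.

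Col2a1, the type II collagen gene known from cartilage and notochord and also transcribed in the embryonic heart, was the most abundant fibrillar gene. It had 65.7, 116, 115 and 88.9 CPM in null replicates 1 to 4, against 137, 167 and 82.9 CPM in wild-type replicates 2 to 4. Wild-type replicate 4 lay within the null range, and the log2 fold change of -0.45 (95% interval -0.97 to 0.08) was not called. Cartilage and notochord markers that the gene could accompany were low, at 11.7 to 14.5 CPM in Hand2 null and 10.8 to 13.9 CPM in wild type when summed over 6 genes, with Noto at 0 reads in all libraries. Only 2 of the 6 had enough reads to be tested, and neither was called. These were the matrilin Matn3 (7.28 ± 0.626 CPM in the null, SD, n = 4, and 5.74 ± 0.608 CPM in wild type, SD, n = 3) and the factor Sox5 (5.38 ± 0.904 CPM in Hand2 null and 6.31 ± 1.14 CPM in wild-type canals), the most abundant of the 6. Col11a1, whose chain copolymerises with type II collagen, averaged 4.37 ± 1.03 CPM in Hand2 null canals and 3.47 ± 0.243 CPM in wild type and was not called. Col27a1 averaged 1.65 CPM in Hand2 null and 2.41 CPM in wild-type canals, and Col24a1, Col5a3 and Col11a2 had 47, 29 and 16 reads over all 7 libraries and were not tested.

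Basement membrane collagens were the most abundant class, and none of the 7 genes tested was called, at the adjusted threshold or at an unadjusted p under 0.05, or by DESeq2. Col4a1 and Col4a2 encode the widespread type IV heterotrimer and lie head to head on chromosome 8, with annotated exons that overlap. Col4a1 had 161, 184, 239 and 121 CPM in null replicates 1 to 4, against 174, 212 and 136 CPM in wild-type replicates 2 to 4. Col4a2 had 71.6, 83.8, 114 and 53.6 CPM in null replicates 1 to 4, against 94.1, 97.4 and 61.3 CPM in wild-type replicates 2 to 4. Both genes were highest in null replicate 3 and lowest in null replicate 4, and both genotypes covered much the same range.

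The type IV pair kept a steady ratio while its level varied. The highest library had 1.98 times the Col4a1 CPM of the lowest and 2.13 times the Col4a2 CPM, whereas the ratio of Col4a1 to Col4a2 per kilobase was 2.15 ± 0.0735 in the null (SD, n = 4) and 2.03 ± 0.194 in wild type (SD, n = 3), with a highest value 1.22 times the lowest. The log2 fold changes were 0.00 for Col4a1 (95% interval -0.49 to 0.50) and -0.08 for Col4a2 (95% interval -0.61 to 0.46), so that a difference of about the size found for Col3a1 lies outside both intervals. The sign of these small values changed with the scaling for Col4a1 and with the libraries used for both.

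The X-linked type IV genes Col4a5 and Col4a6 were not called either. Col4a5 averaged 53.0 ± 10.7 CPM in the null (SD, n = 4) and 50.5 ± 1.17 CPM in wild type (SD, n = 3), and Col4a6 averaged 24.9 ± 2.99 CPM in Hand2 null and 24.6 ± 2.65 CPM in wild-type canals. The 95% interval of the log2 fold change was -0.30 to 0.39 for Col4a5 and -0.34 to 0.35 for Col4a6. The ratio of Col4a5 to Col4a6 per kilobase lay between 1.84 and 2.55 in Hand2 null and between 1.85 and 2.24 in wild-type libraries. Col4a3 and Col4a4, whose chains join that of Col4a5 in the kidney filter, had few reads. Col4a3 had 27 to 45 reads in Hand2 null and 5 to 34 in wild-type libraries, Col4a4 had 1 to 29 in Hand2 null and 12 to 15 in wild-type libraries, and neither was called.

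Col18a1 encodes a multiplexin, a heparan sulfate proteoglycan of basement membranes whose C-terminal fragment is endostatin. It had 112, 143, 137 and 148 CPM in null replicates 1 to 4, against 162, 152 and 133 CPM in wild-type replicates 2 to 4, with a log2 fold change of -0.17 (95% interval -0.46 to 0.13). The related gene Col15a1 had 4, 9, 9 and 21 reads in null replicates 1 to 4, against 2, 0 and 2 reads in wild-type replicates 2 to 4. These values did not overlap, but every wild-type library was below the limit of 3 reads, and the gene had too few reads for the test with the filter. In the fit without a filter its unadjusted p was 0.0112 and its adjusted p was 0.114 (edgeR). Col15a1 lay outside the rule for naming genes and overlaps an annotated antisense transcript, which reads without strand cannot separate. Annotated noncoding transcripts on the opposite strand also overlap exons of Col4a2 and Col4a3.

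**Figure D4:**
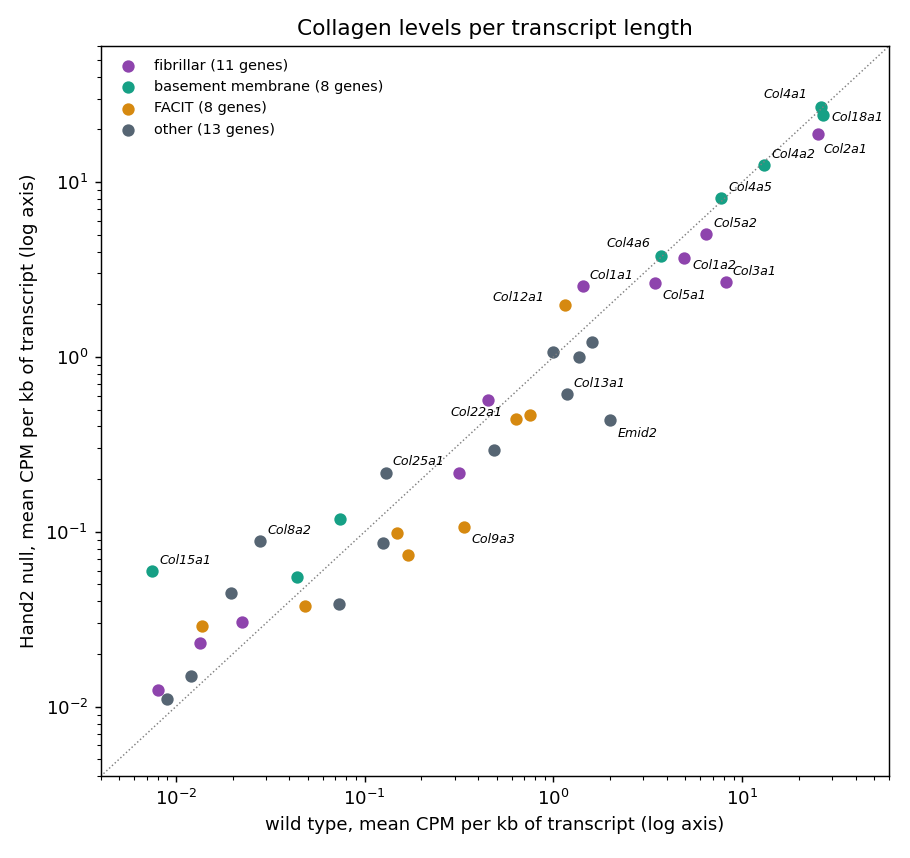
Mean CPM per kilobase of transcript in Hand2 null against wild-type canals for the 40 collagen genes with reads in both genotypes, on log axes, coloured by class; the dotted line marks equal levels. Col3a1 and Emid2 lie furthest below the line among genes above 1 CPM per kilobase in wild type, and Col15a1, near the floor, lies above it.

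Per length of transcript, the same 4 genes led in both genotypes. In null canals the order ran Col4a1 (26.7 ± 7.47 CPM per kilobase), Col18a1 (24.1 ± 2.83), Col2a1 (18.9 ± 4.73), Col4a2 (12.5 ± 3.95) and Col4a5 (8.11 ± 1.63; SD, n = 4). In wild-type canals the order ran Col18a1 (26.7 ± 2.67 CPM per kilobase), Col4a1 (26.3 ± 5.77), Col2a1 (25.3 ± 8.35), Col4a2 (13.1 ± 3.10) and Col3a1 (8.18 ± 0.860; SD, n = 3). The means of Col4a1 and Col18a1 lay within 1 SD of each other in both genotypes, as did that of Col2a1 in wild type, while in the null Col2a1 lay below both by more than 1 SD. Col3a1 held rank 9 in the null and rank 5 in wild type, and Emid2 held rank 20 in the null at 0.434 ± 0.112 CPM per kilobase and rank 11 in wild type at 2.00 ± 0.599 CPM per kilobase. These ranks and distances depend on the transcript length used, which was 2781 nt for Emid2 and 5104 nt for Col2a1. All annotated exons together cover 8176 nt for Emid2 and 9243 nt for Col2a1. Levels with those lengths were not computed.

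None of the 6 FACIT genes tested was called by edgeR or DESeq2, and at an unadjusted p under 0.05 edgeR gave 1 higher and 2 lower. Col12a1, whose chain binds along type I fibrils, was the only one above 10 CPM, with 17.03, 21.8, 37.5 and 14.95 CPM in null replicates 1 to 4, against 11.4, 14.8 and 13.6 CPM in wild-type replicates 2 to 4. The groups did not overlap, by a small margin, and null replicate 3 was the highest library. The log2 fold change was 0.77 (95% interval 0.14 to 1.40, edgeR adjusted p = 0.129), and 0.40 (edgeR adjusted p = 0.174) without null replicate 3. Col22a1, a FACIT of tissue junctions, had 3.43, 4.54, 4.15 and 3.36 CPM in null replicates 1 to 4, against 5.06, 5.26 and 6.38 CPM in wild-type replicates 2 to 4. These did not overlap either, and the log2 fold change of -0.54 (95% interval -1.02 to -0.07) had an edgeR adjusted p of 0.151. An annotated antisense transcript overlaps Col22a1.

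The chains of type IX collagen, which covers type II fibrils in cartilage, all had negative values and were not called. The log2 fold changes were -0.70 for Col9a1 (95% interval -1.59 to 0.20), -1.24 for Col9a2 (-2.51 to 0.03) and -1.67 for Col9a3 (-2.97 to -0.37). Together they had 1.04, 1.80, 3.52 and 2.98 CPM in null replicates 1 to 4, against 3.59, 3.91 and 5.70 CPM in wild-type replicates 2 to 4. Col9a3, which lay outside the naming rule, was called only when null replicate 3 was left out (-2.13, edgeR adjusted p = 0.0445), and its exons overlap those of Tcfl5 on the opposite strand. Col14a1 had 7 to 37 reads in Hand2 null and 13 to 61 reads in wild-type libraries, and Col16a1, Col19a1 and Col20a1 had too few for the test. Col19a1 had 0, 4, 0 and 7 reads in null replicates 1 to 4 and 0 in each wild-type library.

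Of the other collagens, 1 of 9 genes tested fell. Emid2 encodes the type XXVI chain, a secreted protein with an N-terminal EMI domain and short collagenous stretches. It had 31, 43, 32 and 61 reads in null replicates 1 to 4, against 302, 182 and 102 reads in wild-type replicates 2 to 4. In CPM these were 0.830, 1.31, 1.12 and 1.57 in the null, against 6.73, 6.30 and 3.66 in wild type, so that the lowest wild-type library, replicate 4, still had more than any null library. The log2 fold change was -2.23 (SE 0.308, 95% interval -2.90 to -1.56, edgeR adjusted p = 0.00149), and it stayed between -2.47 and -2.08 with any single library left out, always called.

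None of the membrane-anchored collagens tested was called by edgeR. Col25a1, whose product is a transmembrane protein of neurons and other cells, had 1.34, 1.86, 1.36 and 1.28 CPM in null replicates 1 to 4, against 0.981, 0.830 and 0.788 CPM in wild-type replicates 2 to 4. The groups did not overlap, and the log2 fold change was 0.72 (95% interval -0.03 to 1.47, edgeR adjusted p = 0.221). Col13a1, which also encodes a transmembrane collagen, averaged 1.94 ± 0.396 CPM in the null (SD, n = 4) and 3.71 ± 1.18 CPM in wild type (SD, n = 3), with 1 wild-type library inside the null range. Its log2 fold change of -0.95 (95% interval -1.62 to -0.28) was not called by edgeR (adjusted p = 0.085) and was called by DESeq2 (-0.965, adjusted p = 0.0305). It was named after its values had been seen. Col23a1, the most abundant of the 13, averaged 6.91 ± 1.19 CPM in Hand2 null canals and 9.02 ± 3.13 CPM in wild type.

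Type VI collagen forms beaded microfilaments, and its chains were low and not called. Col6a1 averaged 4.39 ± 0.349 CPM in the null (SD, n = 4) and 4.08 ± 0.490 CPM in wild type (SD, n = 3), and Col6a2, its neighbour on chromosome 10, averaged 4.65 ± 1.46 CPM in Hand2 null and 6.33 ± 1.36 CPM in wild-type canals. Col6a3 had 3 to 28 reads in Hand2 null and 9 to 35 reads in wild-type libraries. The anchoring fibril gene Col7a1 (0.793 ± 0.105 CPM in Hand2 null canals and 1.16 ± 0.306 CPM in wild type) and the short-chain gene Col8a1 (1.49 ± 0.588 CPM in Hand2 null and 2.48 ± 1.31 CPM in wild-type canals) were not called. Col8a2, Col10a1, Col17a1 and Col6a6 had too few reads to be tested. Exons of Col10a1 overlap those of Nt5dc1 on the opposite strand, so its 24 reads in all are uncertain. The ratio of Col6a1 to Col6a2 per kilobase was 1.32, 1.22, 0.696 and 1.33 in null replicates 1 to 4, against 0.699, 0.693 and 0.836 in wild-type replicates 2 to 4, so null replicate 3 lay among the wild-type values.

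Over all 30 genes tested, 4 did not overlap between the genotypes and were lower in the null (Col3a1, Col5a2, Col22a1 and Emid2), and 2 were higher (Col12a1 and Col25a1). Among all genes tested, 10.3% were lower and 11.6% higher without overlap.

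Summed over each class, the basement membrane genes gave much the same level in both genotypes. They had 472 ± 86.5 CPM in the null (SD, n = 4) and 484 ± 66.9 CPM in wild type (SD, n = 3). The fibrillar genes had 148, 241, 251 and 192 CPM in null replicates 1 to 4, against 294, 317 and 249 CPM in wild-type replicates 2 to 4. These sums overlapped at null replicate 3 and wild-type replicate 4, and without Col3a1 they averaged 193 ± 45.5 CPM in Hand2 null canals and 241 ± 39.4 CPM in wild type. The other collagens had 20.2 to 26.5 CPM in Hand2 null canals and 28.7 to 39.6 CPM in wild type. These sums did not overlap, but without the called gene Emid2 they did, at 18.7 to 25.4 CPM in Hand2 null canals and 25.1 to 33.4 CPM in wild type. FACIT genes had 30.1 ± 11.03 CPM in Hand2 null canals and 24.5 ± 2.31 CPM in wild type, and the null mean was 24.8 CPM without replicate 3. Without Col12a1 the order turned round, with means of 7.25 CPM in Hand2 null canals and 11.2 CPM in wild type. Sums over the members were not tested.

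**Figure D5:**
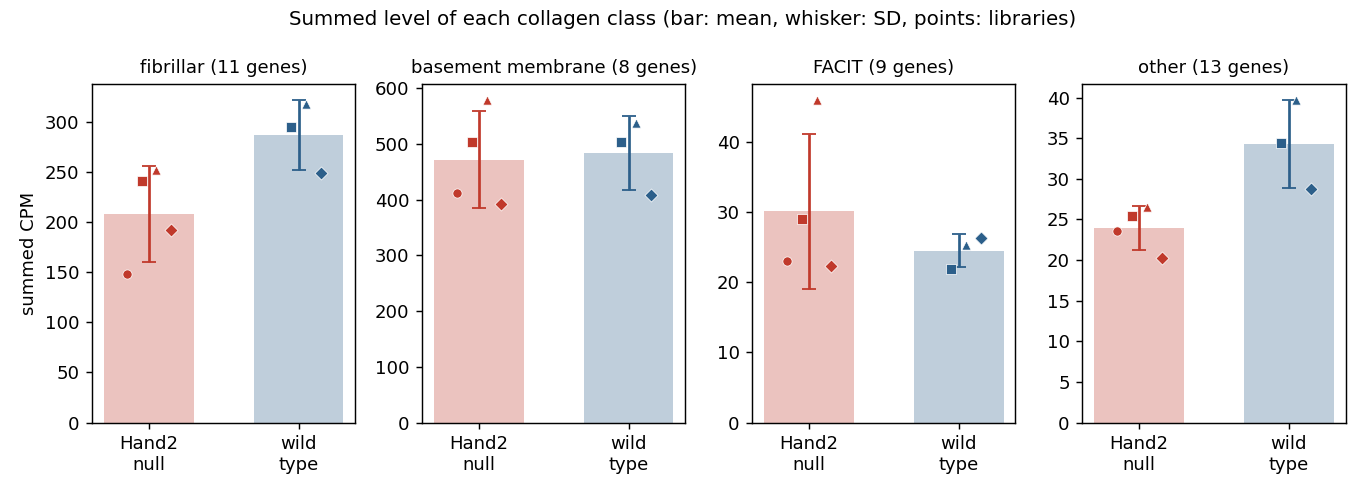
Summed CPM of the collagen genes of each class, with the 4 Hand2 null libraries left of the 3 wild-type libraries; bars are means, whiskers SD and points libraries (circle, square, triangle and diamond for replicates 1 to 4). The sums of the other class do not overlap with Emid2 counted and overlap without it, those of the fibrillar class overlap at the edges, and those of the basement membrane class cover the same range.

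As a share of all collagen reads, fibrillar genes made up 24.4%, 30.1%, 27.8% and 30.6% in null replicates 1 to 4, against 34.5%, 34.5% and 34.9% in wild-type replicates 2 to 4. Basement membrane genes made up 62.6% to 67.9% in the null and 57.4% to 58.9% in wild type. The shares of a library sum to 100%, so these statements are linked. Neither class overlapped between the genotypes. Col3a1 alone made up 2.05% ± 0.130 of collagen reads in the null (SD, n = 4) and 5.60% ± 1.36 in wild type (SD, n = 3), and the fibrillar share without it, 26.2% ± 2.80 in the null and 29.0% ± 1.12 in wild type, overlapped.

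Genes that make, process and bind collagen were measured beside the chains, in lists chosen with earlier results of these data known. Among all genes tested, 4.11% were called higher and 2.13% lower. Of 17 genes for folding and modification in the endoplasmic reticulum, 5 rose and none fell, with a median log2 fold change of 0.26. They included the prolyl hydroxylase subunits P4ha1 (log2 fold change 1.29, edgeR adjusted p = 0.000952), P4ha2 (2.02, adjusted p = 0.000148) and P4hb (0.76, adjusted p = 0.0133) and the lysyl hydroxylase Plod2 (1.42, adjusted p = 0.000995). P4ha2 averaged 167 ± 35.5 CPM in the null (SD, n = 4) and 40.7 ± 3.17 CPM in wild type (SD, n = 3). Of 9 tested genes of procollagen processing and crosslinking, 1 rose, the tolloid-like protease Tll1 (3.72 ± 0.672 CPM in Hand2 null canals and 0.761 ± 0.270 CPM in wild type, edgeR adjusted p = 0.00231), and the median was -0.18. Of 9 tested collagen receptors, 1 rose, the integrin subunit Itga2 (1.42 ± 0.202 CPM in Hand2 null canals and 0.504 ± 0.140 CPM in wild type, edgeR adjusted p = 0.0453), and the median was 0.51.

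Of 7 tested genes for proteins that bind collagen fibrils, 1 fell, the matricellular gene Postn (2.89 ± 0.742 CPM in Hand2 null canals and 11.9 ± 9.35 CPM in wild type, edgeR adjusted p = 0.0141), and the median was 0.07. The collagen-degrading proteases gave no call among 3 genes tested (median -0.24), with Mmp2 at 25.3 ± 2.64 CPM in Hand2 null canals and 22.2 ± 1.02 CPM in wild type and Mmp14 at 29.9 ± 6.76 CPM in Hand2 null and 34.8 ± 4.25 CPM in wild-type canals. For all these lists the median of all genes tested was 0.02.

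Markers of the cell types that the dissected tissue could hold were counted in the same test, also in lists chosen with earlier results known. For comparison, 4.11% of all genes tested were called higher and 2.13% lower. Of 8 cushion mesenchyme markers, 4 fell and none rose: Twist1, Snai1, Sox9 and Msx1 had log2 fold changes of -2.10, -1.25, -1.27 and -1.46. Snai2, Prrx1, Prrx2 and Tbx20 were not called, with log2 fold changes of 0.17, -0.07, -0.37 and 0.02. The list of 8 summed to 404 to 495 CPM in Hand2 null and 454 to 599 CPM in wild-type libraries. Most of it came from Tbx20, at 342 ± 33.8 CPM in Hand2 null canals and 333 ± 11.2 CPM in wild type. Of 8 endothelial markers, 4 rose and none fell (Pecam1, Kdr, Tie1 and Esam, 0.74 to 1.11). Cdh5, Emcn, Tek and Nfatc1 were not called (0.51, 0.34, 0.08 and -0.09). The endothelial list summed to 433 to 503 CPM in Hand2 null and 293 to 320 CPM in wild type. Of 9 foregut and liver bud markers, 7 were tested and 3 rose, the keratins Krt8, Krt18 and Krt19 (0.69, 1.14 and 2.41). That list summed to 718 to 905 CPM in Hand2 null and 258 to 278 CPM in wild type, nearly all of it from these keratins. Epcam (2.12 ± 1.94 CPM in Hand2 null canals and 1.85 ± 0.830 CPM in wild type), Cdh1, Afp and Ttr were not called, and Foxa2 and Shh had too few reads to be tested.

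Of 6 neural and neural crest markers, 3 were tested and 1 fell, Tubb3 (-2.20), with list sums of 5.16 to 6.64 CPM in Hand2 null and 12.6 to 42.5 CPM in wild type. Among 7 blood markers 6 were tested and Klf1 fell (-1.16), with sums of 5605 to 14520 CPM in Hand2 null and 9337 to 22060 CPM in wild type. None of 7 epicardial markers was called, with Wt1 at 30.6 ± 10.6 CPM in Hand2 null canals and 20.1 ± 1.61 CPM in wild type, Tbx18 at 16.9 ± 6.50 CPM in Hand2 null and 12.7 ± 4.31 CPM in wild-type canals, and sums of 65.5 to 82.9 CPM in Hand2 null and 50.2 to 71.4 CPM in wild type. Of 8 heart muscle genes, Myh7 rose (0.80), and of the 4 canal genes none was called (log2 fold change 0.40 for Tbx3 and -0.25 for Bmp2). The part of these cell types in the results for Col3a1 and Emid2 was not tested.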

How the data were processed

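The authors deposited whole-number read counts per gene symbol for each library. The submitters' processing notes name build mm9 and the tools SAMtools, HTSeq and TopHat2 2.0.13, while annotation and counting options were not given in the sources used here. Libraries were unstranded, from 30 to 60 ng of total RNA (RNA integrity number at least 8.5), depleted of ribosomal RNA, amplified for 8 PCR cycles and read for 50 nt, per the labels' protocols. The 5 summary lines of each file were left out: 7.31% to 14.2% of reads fell in no gene, 1.46% to 1.69% in several genes, and 9.08% to 11.6% (null) or 12.2% to 13.8% (wild type) aligned to several places. Limits at 0 reads cover counting error only.

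CPM used the sum of gene rows. The test was edgeR 4.0.16 (R 4.3.3; TMM, filterByExpr with minimum count 10, glmQLFTest, genotype only, 5 residual degrees of freedom), checked on simulated counts. SE is the log2 fold change over the square root of F. DESeq2 1.42.0, other scalings and filters, left-out libraries and a replicate block were alternatives. Levels per kilobase used the longest protein-coding GENCODE M21 transcript. Coordinates of GRCm38 are printed for the RefSeq sequences only. Members, lists and alternatives were chosen with earlier results of these data known. Named genes are members that were called, had at least 10 CPM in a group, or did not overlap and had at least 1 CPM, and up to 4 called (otherwise the 2 most abundant) genes of each list.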

Additional observations from a re-analysis of the deposited data

Results flagged for a closer look

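Among 19 sets of 4 null values examined (15 named genes and 4 class sums), 1 had a library far from the others: Col25a1 in null replicate 2, at 1.86 CPM, against 1.28 to 1.36 CPM in the other null libraries and 0.788 to 0.981 CPM in wild type. Chance flags about 1 in 20 such sets.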

How the results depend on the processing

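Col3a1 and Emid2 were called lower under all 14 alternatives run (log2 fold changes -1.72 to -1.55 and -2.48 to -2.07; adjusted p up to 0.00798 and 0.0153). The number of collagen genes called lower was 2 to 3 and higher 0 throughout. The other 13 named genes were called under none. Some near-zero log2 fold changes reversed sign, and the cause was not tested. With 1 library left out, Col4a1 ranged over -0.197 to 0.186, Col4a2 over -0.312 to 0.0709, Col4a5 over -0.0372 to 0.115 and Col4a6 over -0.083 to 0.0794. Col4a1 was -0.0129 with DESeq2, -0.0133 with RLE, -0.014 with upper-quartile scaling, -0.0155 with the replicate block, and, leaving out libraries, -0.197 (null replicate 3), -0.0021 (wild-type replicate 2), -0.161 (wild-type replicate 4) and -0.147 (null 2 with wild-type 4). Col4a6 was -0.0109 with DESeq2, -0.0113 with RLE, -0.0147 with upper-quartile scaling, -0.000262 with the replicate block, -0.083 without null replicate 3, and -0.0575 and -0.0153 without wild-type replicate 2 or 3. Col4a2 was 0.0709 without null replicate 4, and 0.00116 and 0.053 without wild-type replicate 2 or 3. Col4a5 was -0.0372 and -0.0247 without null replicate 2 or 3, and -0.0443 with null 2 and wild-type 4 both removed.

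Over all genes, 587 were higher and 305 lower. The counts were 993 and 768 with DESeq2, 210 to 946 and 46 to 652 with 1 library left out, and 298 and 123 with null replicate 2 and wild-type replicate 4 both removed. The libraries null 1, null 2, null 3, wild type 2 and wild type 3, each left out alone, moved 1 or both of these counts by over 1.5 times, with the highest counts without null replicate 3 and the lowest without wild-type replicate 2. Replicates 2 to 4 share numbers between genotypes, and deviations of same-numbered libraries correlated at -0.0732, 0.257 and 0.166. Null replicates 3 and 4 correlated best with the wild-type library of the same number, but null replicate 2 with wild-type replicate 4 (0.137). The numbers were not taken as pairs in the main fit, and whether they mark pairs was not settled. With the replicate block on 6 libraries, 761 genes were higher and 578 lower. The same libraries without the block gave 284 and 90.

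Without the most abundant gene, summed levels were 111.5 CPM in Hand2 null canals and 157.9 CPM in wild type for fibrillar genes (without Col2a1), 295.7 CPM (null) and 309.7 CPM (wild type) for basement membrane genes (without Col4a1), 7.25 CPM (null) and 11.2 CPM (wild type) for FACIT genes (without Col12a1), and 17.02 CPM (null) and 25.25 CPM (wild type) for the others (without Col23a1). Without the called gene, an alternative chosen after seeing the data, fibrillar sums averaged 193 CPM (null) and 241 CPM (wild type) and the others 22.7 CPM (null) and 28.7 CPM (wild type). The 11 collagen genes with at most 59 reads in all were too shallow for the test.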
